A study of Mus musculus with 8 samples.

Results

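The fibroblast growth factor (FGF) genes described here are 10 genes of 26590 symbols in an RNA sequencing table of fetal mouse hearts with and without *Dio3*. They are 4 FGF genes (*Fgf9*, *Fgf10*, *Fgf12* and *Fgf16*), 3 receptors (*Fgfr1*, *Fgfr2* and *Fgfr3*) and 3 feedback inhibitors (*Spry1*, *Spry2* and *Dusp6*). They were chosen by name, and each gene was read from its transcript row with the highest average of both genotype means. The 10 genes hold 35 of the 51414 rows, and 33 of these had a mean above 1 RPKM (a read number divided by transcript length and by the mapped reads of a sample) in at least 1 genotype and were tested. *Fgf16* had no such row, so 9 genes were tested.

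*Dio3* encodes the type 3 deiodinase, which inactivates thyroid hormone. Hearts of 4 *Dio3+/+* and 4 *Dio3-/-* fetuses were compared, all on the C57BL/6J strain, each heart from an individual fetus, with the knockout fetuses lacking the enzyme in all tissues and no treatment named. Sample headings give E13.5 for all 8 hearts, as does the study's results text, whereas its methods and figure legend give a later day that is still before E18.5. The age field gives E18.5 for 2 of the 4 *Dio3-/-* hearts. Thus, any part of a genotype difference that comes from those 2 hearts being older cannot be told apart from the genotype. The series is described as male hearts, but *Xist*, expressed from the inactive X chromosome of females, had means of 35.64 and 39.97 RPKM in *Dio3+/+* and *Dio3-/-* hearts. Its coefficients of variation (SD divided by mean) were 0.99 and 0.55. By the bounds explained below, a single *Dio3-/-* heart could lie between 6.69 and 73.3 RPKM of *Xist*, so none of them lacked it. A *Dio3+/+* heart could lie between 0 and 88.8 RPKM. *Eif2s3y*, a gene of the Y chromosome, was at 9.38 and 7.29 RPKM (coefficients of variation 1.04 and 1.46). The sex of each heart is thus not settled, and the balance of sexes between the genotypes could not be checked. *Dio3* itself was at 0.35 RPKM (coefficient of variation 1.23) and 0.13 RPKM (coefficient of variation 0.76), too low to be tested or to check the labels, whereas *Klf9*, a gene induced by thyroid hormone, was at 1.86 and 8.48 RPKM (log2 fold change 1.93, adjusted *P* = 5.7e-06 by limma).

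Secreted FGFs bind receptor tyrosine kinases at the cell surface together with heparan sulfate and activate the RAS-ERK cascade. In the fetal heart, FGF9 and FGF16 from the epicardium and endocardium drive growth of the myocardium, and FGF10 acts in the cardiac progenitors that build the outflow tract and right ventricle and later on cardiac fibroblasts and myocytes. FGF12 belongs to the intracellular branch of the family, which is not secreted and binds the tail of voltage-gated sodium channels. Sprouty proteins and the ERK phosphatase DUSP6 are induced by the cascade and restrain it.

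The deposited table gives the mean over the 4 hearts of a genotype and their coefficient of variation (CV, the SD divided by the mean), without single hearts. All changes below are *Dio3-/-* relative to *Dio3+/+* on the log2(RPKM + 0.5) scale, with their SE and 95% CI. Given a mean and an SD, none of 4 values can lie further than 1.5 SD from the mean, which bounds the value of any single heart; these bounds are given as the possible range.

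Among the tested genes, *Fgf12* was higher in *Dio3-/-* hearts and the other 8 did not pass the test. Over all genes tested, 1.91% were called higher and 0.382% lower, so that 1 of 9 is read against a background of 2.29% in either direction. The 8 genes that were not called had adjusted *P* values between 0.441 and 0.843. Log2 fold changes were negative in 7 of the 9 and positive in 2, with a median of -0.07, and the median over the 14657 genes tested was 0.039.

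**Figure D1:**
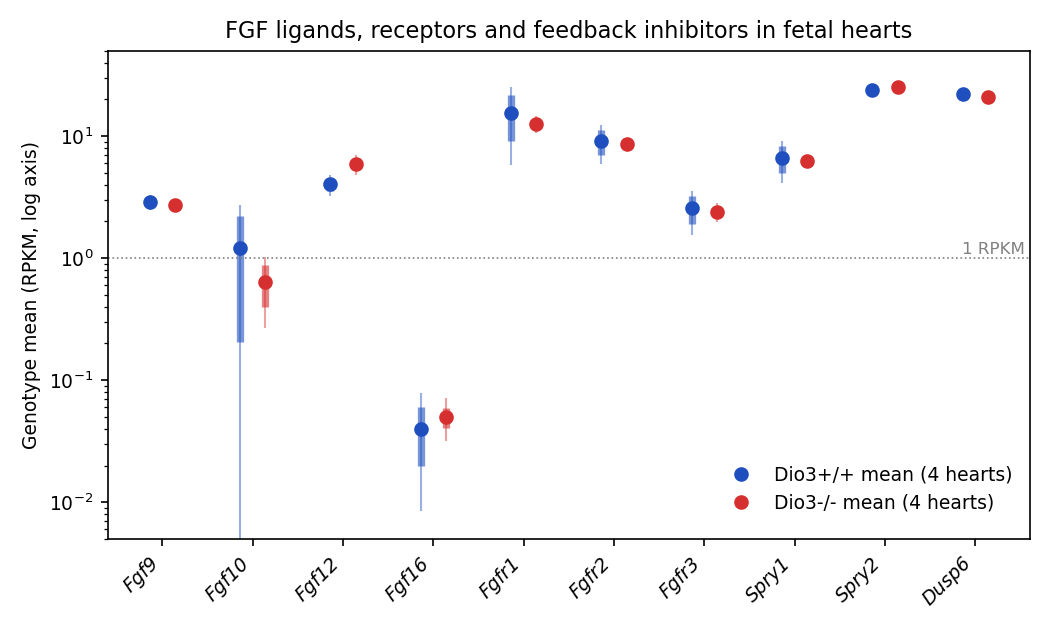
Mean RPKM (log axis) of the 10 FGF genes in Dio3+/+ and Dio3-/- hearts, 4 hearts each; thick bars are mean ± SD and thin lines the range in which any single heart can lie. Fgf12 is the gene whose thin lines do not meet, ending at 4.78 in Dio3+/+ and starting at 4.82 in Dio3-/- hearts; the thin line of Fgf10 in Dio3+/+ hearts reaches 0, which a log axis cannot show.

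The 4 FGF genes differed in level and in how firmly a change could be measured. *Fgf12*, the intracellular FGF, had a mean of 4.02 RPKM (CV 0.12) in *Dio3+/+* and 5.94 RPKM (CV 0.12) in *Dio3-/-* hearts, a ratio of 1.48. Single hearts could lie between 3.26 and 4.78 RPKM in *Dio3+/+* and between 4.82 and 7.06 RPKM in *Dio3-/-* fetuses, so in this row every *Dio3-/-* heart was above every *Dio3+/+* heart. Of the 9 tested FGF genes only *Fgf12* showed such separation, which was seen upward for 3.4% and in either direction for 3.86% of all genes tested. The log2 fold change was 0.51 (SE 0.10, 95% CI 0.28 to 0.74, adjusted *P* = 0.0379 by limma). This call lay close to the threshold and was lost in 4 of the 9 other settings that could test the gene, with adjusted *P* values up to 0.162 and a log2 fold change between 0.47 and 0.55.

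The other tested rows of *Fgf12* gave similar changes, although rows of a gene share reads and are not replicates. The row uc007yvr.1 had means of 3.74 and 5.45 RPKM and the row uc007yvs.1 means of 3.54 and 5.14 RPKM in *Dio3+/+* and *Dio3-/-* hearts, and both passed the test. In these rows the possible ranges of the genotypes met narrowly, with *Dio3+/+* hearts reaching up to 4.45 and 4.21 RPKM and *Dio3-/-* hearts down to 4.42 and 4.17 RPKM. The log2 fold changes of the 3 tested rows were between 0.48 and 0.51, with adjusted *P* values between 0.0379 and 0.0463 by limma. A low row, uc007yvu.1, was at 0.44 RPKM (CV 0.22) and 0.83 RPKM (CV 0.05), below the filter, with possible ranges that did not meet (0.288 to 0.595 and 0.757 to 0.904 RPKM). Its ratio of means was 1.89, beside 1.45 to 1.48 in the 3 higher rows. Tested without the filter, it had a log2 fold change of 0.50 (SE 0.08, adjusted *P* = 0.0369 by limma), whereas the 3 higher rows then had adjusted *P* values from 0.0711 to 0.083. The added 0.5 RPKM exceeds the *Dio3+/+* mean of the low row, so its log2 value understates its ratio.

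*Fgf9*, the secreted growth signal from epicardium and endocardium, was nearly level between the genotypes. Its mean was 2.87 RPKM (CV 0.09) in *Dio3+/+* and 2.71 RPKM (CV 0.04) in *Dio3-/-* hearts, and the possible range of *Dio3-/-* hearts, 2.52 to 2.9 RPKM, lay within that of *Dio3+/+* hearts, 2.46 to 3.28 RPKM. The log2 fold change was -0.07 (SE 0.08, 95% CI -0.24 to 0.10, adjusted *P* = 0.676 by limma).

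*Fgf10*, the progenitor and fibroblast signal, had the widest spread of the tested FGF genes. Its mean was 1.21 RPKM (CV 0.83) in *Dio3+/+* and 0.64 RPKM (CV 0.38) in *Dio3-/-* hearts. A *Dio3+/+* heart could lie anywhere from 0 to 2.74 RPKM and a *Dio3-/-* heart from 0.268 to 1.02 RPKM, so the groups could overlap fully. The log2 fold change of -0.58 (SE 0.37) had a 95% CI from -1.41 to 0.24 and an adjusted *P* of 0.441 by limma, and the gene was tested only because its *Dio3+/+* mean passed 1 RPKM. With a CV of 0.83 the SD on the log2 scale is a rough approximation, and so are this SE, CI and *P* value. *Fgf16*, the other epicardial and endocardial ligand, was near 0 in both genotypes, with 0.04 RPKM (CV 0.5) and 0.05 RPKM (CV 0.19), and no change in it was detectable at these levels.

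The 3 receptors showed no change past the threshold, with different precision. *Fgfr1*, the receptor with the highest level, had a mean of 15.51 RPKM (CV 0.41) in *Dio3+/+* and 12.63 RPKM (CV 0.1) in *Dio3-/-* hearts. *Dio3+/+* hearts could lie between 5.85 and 25.2 RPKM, a span that enclosed the 10.6 to 14.6 RPKM possible for *Dio3-/-* hearts. The log2 fold change was -0.29 (SE 0.24, 95% CI -0.82 to 0.25, adjusted *P* = 0.569 by limma), and the 6 rows of the gene had log2 fold changes between -0.33 and -0.29 with CVs of 0.41 to 0.47 in *Dio3+/+* and 0.05 to 0.1 in *Dio3-/-* hearts.

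*Fgfr2*, whose splice forms differ in the ligands they bind, had a mean of 9.06 RPKM (CV 0.23) in *Dio3+/+* and 8.62 RPKM (CV 0.08) in *Dio3-/-* hearts. Possible single values were 5.86 to 12.3 RPKM and 7.52 to 9.72 RPKM, again with the *Dio3-/-* range inside the *Dio3+/+* range. The log2 fold change was -0.07 (SE 0.14, 95% CI -0.38 to 0.24, adjusted *P* = 0.843 by limma). Its 12 rows had *Dio3+/+* means from 2.48 to 9.06 RPKM and log2 fold changes from -0.08 to 0.05, none past the threshold, and the table does not say which rows are the epithelial or mesenchymal splice form. *Fgfr3* had means of 2.56 RPKM (CV 0.26) and 2.4 RPKM (CV 0.11), with possible ranges of 1.54 to 3.58 and 1.98 to 2.82 RPKM. Its log2 fold change was -0.08 (SE 0.15, 95% CI -0.41 to 0.26, adjusted *P* = 0.83 by limma).

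The feedback inhibitors held the most precisely measured genes. *Spry2*, a Sprouty inhibitor of RAS-ERK signaling and the most abundant of the 10 genes, had a mean of 23.94 RPKM (CV 0.04) in *Dio3+/+* and 25.01 RPKM (CV 0.05) in *Dio3-/-* hearts, with possible ranges of 22.3 to 25.6 and 22.9 to 27.1 RPKM. The change was 0.06 (SE 0.05, 95% CI -0.05 to 0.18, adjusted *P* = 0.57 by limma). *Dusp6*, the ERK phosphatase, had a mean of 22.13 RPKM (CV 0.04) in *Dio3+/+* and 21.03 RPKM (CV 0.05) in *Dio3-/-* hearts, with possible ranges of 20.6 to 23.6 and 19.3 to 22.8 RPKM. The change was -0.07 (SE 0.05, 95% CI -0.19 to 0.04, adjusted *P* = 0.503 by limma), so that both of these targets overlapped between the genotypes while lying in narrow ranges.

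*Spry1*, the other Sprouty gene, had a mean of 6.63 RPKM (CV 0.25) in *Dio3+/+* and 6.26 RPKM (CV 0.07) in *Dio3-/-* hearts. Its possible ranges were 4.09 to 9.17 and 5.55 to 6.97 RPKM, and its change was -0.08 (SE 0.15, 95% CI -0.40 to 0.25, adjusted *P* = 0.827 by limma).

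**Figure D2:**
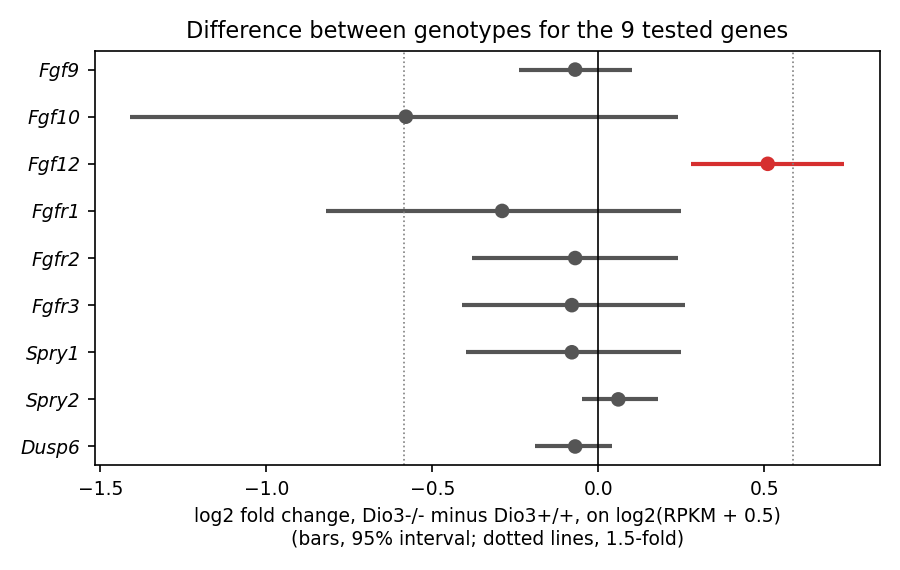
Log2 fold change (Dio3-/- relative to Dio3+/+, log2(RPKM + 0.5) scale) of the 9 tested FGF genes with 95% CI, 4 hearts per genotype; dotted lines mark a 1.5-fold change. The interval of Fgf12 (0.28 to 0.74) lies above 0, the intervals of the other 8 include 0, and those of Spry2 and Dusp6 are narrow while that of Fgf10 runs from -1.41 to 0.24.

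A missed threshold does not show that a gene stayed level, so the intervals were read for the size of change they leave room for. For 6 of the 9 tested genes (*Fgf9*, *Fgfr2*, *Fgfr3*, *Spry1*, *Spry2* and *Dusp6*) the 95% CI lay within a 1.5-fold change in either direction, a log2 value of 0.58. Over all genes tested this held for 90.5%. The intervals of *Fgf10* and *Fgfr1* reached beyond a 1.5-fold decrease, and that of *Fgf12* beyond a 1.5-fold increase. The interval of *Fgf10* is approximate because of its large spread between hearts.

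**Figure D3:**
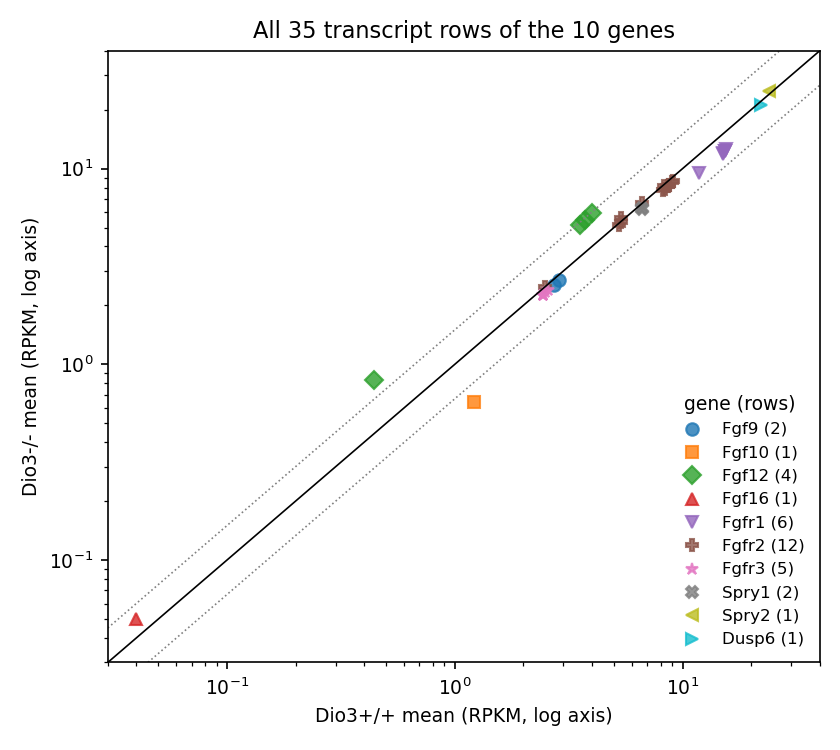
Dio3-/- mean against Dio3+/+ mean (RPKM, both axes log) of all 35 transcript rows of the 10 FGF genes; the solid line marks equal means, the dotted lines a 1.5-fold difference, and rows of a gene share reads. The 4 rows of Fgf12 lie above the solid line, its low row (0.44 and 0.83) beyond the upper dotted line, while the 12 rows of Fgfr2 lie along the solid line and the 6 rows of Fgfr1 below it.

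Levels in RPKM are scaled to transcript length and could be ordered between genes. In *Dio3+/+* hearts the order from high to low was *Spry2*, *Dusp6*, *Fgfr1*, *Fgfr2*, *Spry1*, *Fgf12*, *Fgf9*, *Fgfr3*, *Fgf10* and *Fgf16*, and *Dio3-/-* hearts gave the same order. Neighbors did not always differ beyond their spread. In *Dio3+/+* hearts the mean ± SD of neighbors met everywhere except between *Spry1* and *Fgf12*, between *Fgf12* and *Fgf9* and between *Fgf10* and *Fgf16*. In *Dio3-/-* hearts they met only between *Spry1* and *Fgf12* and between *Fgf9* and *Fgfr3*; thus *Fgf12* stood below *Spry1* in *Dio3+/+* hearts and was not separated from it in *Dio3-/-* hearts.

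The spread between hearts was larger in *Dio3+/+* than in *Dio3-/-* fetuses for 7 of the 10 genes, smaller for 2 (*Spry2* and *Dusp6*) and equal for *Fgf12*. Among the 9 tested genes it was larger in *Dio3+/+* hearts for 6, and over all genes tested this was so for 65.4%, with median CVs of 0.09 in *Dio3+/+* and 0.06 in *Dio3-/-* hearts. The *Dio3-/-* CV was at most 0.12 for 8 of the 10 genes, although 2 of those 4 hearts carry the later age label. In *Dio3+/+* hearts the CV was above the median of 0.09 for all of the 10 genes but *Fgf9*, *Spry2* and *Dusp6*.

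**Figure D4:**
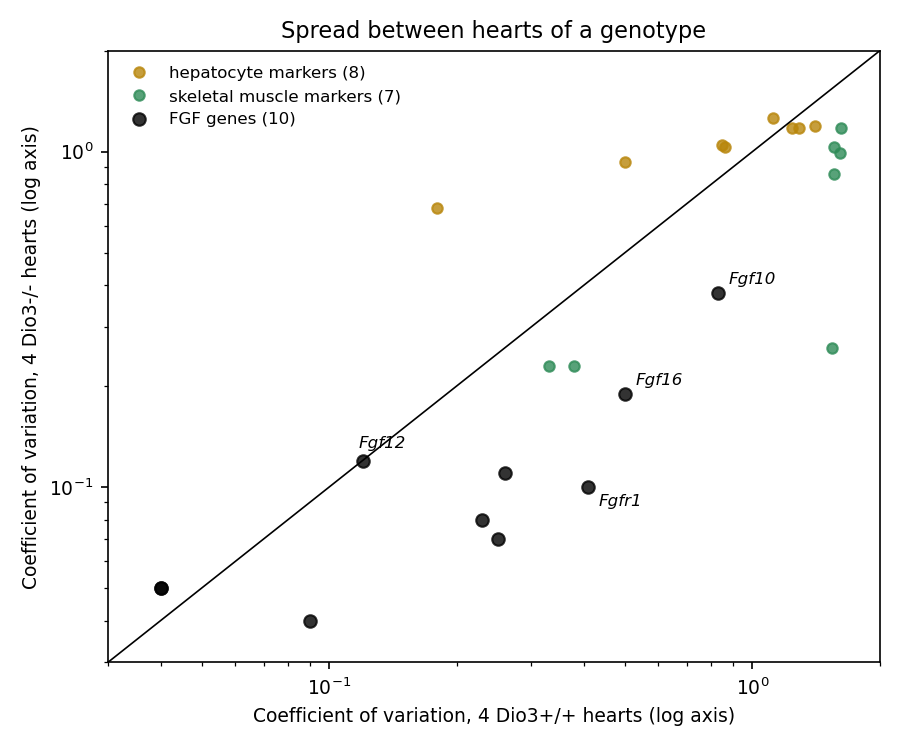
Coefficient of variation between the 4 Dio3-/- hearts against that between the 4 Dio3+/+ hearts (both axes log) for the 10 FGF genes (black), 8 liver genes (gold) and 7 skeletal muscle genes (green), with the diagonal where both are equal. Fgf10 (0.83 and 0.38) and Fgfr1 (0.41 and 0.1) spread more in Dio3+/+ hearts, as do the skeletal muscle genes and 65.4% of all genes tested. Spry2 and Dusp6 share the point at 0.04 and 0.05.

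Genes of other tissues also spread widely between hearts of a genotype. Of 7 skeletal muscle genes, 5 had a higher mean in *Dio3+/+* hearts, among them *Myog* with 9.78 RPKM (CV 1.56) against 1.17 RPKM (CV 0.86) and *Myh3* with 14.23 RPKM (CV 1.61) against 0.72 RPKM (CV 0.99). None of the 5 tested genes of this list passed, the lowest adjusted *P* being 0.081 by limma, and the levels of the list summed to 81.7 and 92.3 RPKM, with *Ckm*, which heart muscle also expresses, at 50.4 and 87.79 RPKM. All 8 liver genes had higher means in *Dio3-/-* hearts, with summed levels of 22.9 and 123 RPKM, CVs from 0.18 to 1.41 and from 0.68 to 1.26, and adjusted *P* values from 0.121 to 0.242. Of the 8 lung genes only *Nkx2-1* was tested (8.18 and 8.35 RPKM), and the surfactant gene *Sftpc* was at 0 and 0.26 RPKM. The part of such tissue in the spread of *Fgf10*, *Fgfr1* and the other receptors was not tested.

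The cell types of the heart that send and receive FGF signals were checked by their markers. All 8 myocardial markers had higher means in *Dio3-/-* hearts, with a median log2 fold change of 0.24, summed levels of 10700 and 12600 RPKM, and 1 called gene, the calcium release channel *Ryr2* (24.20 and 36.62 RPKM, log2 fold change 0.59, adjusted *P* = 0.0231 by limma). The largest parts of the myocardial sum were *Actc1* (4778.41 and 5638.08 RPKM) and *Myl2* (3431.57 and 4058.35 RPKM), neither of them called. The 10 epicardial markers had summed levels of 144 and 156 RPKM, with higher *Dio3-/-* means for 8 and lower means for 2. Of these, 1 was called, the retinoic acid enzyme *Aldh1a1* (1.21 and 1.84 RPKM, adjusted *P* = 0.0482 by limma). All 8 endocardial markers also had higher means in *Dio3-/-* hearts, with summed levels of 291 and 314 RPKM. None was called, with a lowest adjusted *P* of 0.0554 by limma. An unadjusted *P* under 0.05 by limma was reached by 5 myocardial, 3 epicardial and 3 endocardial markers, and by 19.7% of all genes tested. The share of all genes tested with a higher *Dio3-/-* mean was not calculated, but their median log2 fold change was 0.039. Of the 8 neural crest and glial markers, 4 had higher and 4 had lower means in *Dio3-/-* hearts. From this list 3 were tested, and *Tubb3*, a neuronal tubulin, was called (2.08 and 3.54 RPKM, adjusted *P* = 0.00856 by limma). In whole hearts, more cells of a type and more RNA per cell cannot be told apart. The part of any of these cell types in the *Fgf12* difference was not tested.

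The promoter of *Fgf12* was read for the hexamer AGGTCA, to which thyroid hormone receptors bind in pairs. RefSeq sequences of the GRCm38.p6 assembly, from 250 bases before to 50 bases after a gene start, were found for 8 of the 10 genes in 12 windows, 4 of them for *Fgf12*. The hexamer occurred on either strand in 2 of the 12 windows, and in 16.3% of all 32851 windows. In *Spry2* it lay after the start, and in *Fgf12* it began 244 bases before 1 of the 4 starts. That stretch is shown because it belongs to the gene that was called; it lies on the minus strand of chromosome 16, before the first exon of that transcript and within the gene for transcripts that start further upstream, and the capitals mark the reverse complement of the hexamer.
*Fgf12*, chr16:28565150-28565201: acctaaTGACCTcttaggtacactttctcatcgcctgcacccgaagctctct
A pair of the hexamers in the same direction with 4 bases between (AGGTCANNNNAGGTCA, either strand) was in none of the 12 windows and in 0.0152% of all windows. The table does not say which of its rows begins at this start.

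The rest of the pathway was described with 8 lists of 90 further genes, of which 68 were tested. Of these, 1 was called higher (*Ptpn11*) and 1 lower (*Fos*), or 2.94% of those tested, beside 2.29% of all genes tested. An unadjusted *P* under 0.05 was reached by 13 of the 68, and the counts at an unadjusted *P* in the lists below are to be read against the 19.7% of all genes. Hearts could not overlap, as for 3.86% of all genes tested, for 3 genes that were higher in *Dio3-/-* hearts (*Ptpn11*, *Hras1* and *Fgf1*) and for *Fos*, which was lower.

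The sodium channel and intracellular FGF genes listed beside *Fgf12* gave no call. Of 6 genes for sodium channel subunits, the binding partners of intracellular FGFs, only *Scn10a* was tested, with means of 1.63 RPKM (CV 0.22) and 2.36 RPKM (CV 0.14) and a log2 fold change of 0.43, which did not pass (95% CI 0.12 to 0.73, adjusted *P* = 0.128 by limma). *Fgf13*, the intracellular FGF with the highest level, had means of 21.65 and 26.02 RPKM and a log2 fold change of 0.26 (95% CI 0.09 to 0.43, adjusted *P* = 0.107 by limma). *Fgf11*, of the same branch, had means of 3.27 and 2.78 RPKM (log2 fold change -0.20), and *Fgf14* was below the filter.

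Of the 15 other secreted ligands 3 were tested and none was called, with 1 at an unadjusted *P* under 0.05. *Fgf1*, a ligand for all FGF receptors, had means of 5.12 RPKM (CV 0.09) and 6.45 RPKM (CV 0.05) and a log2 fold change of 0.31 (95% CI 0.15 to 0.47), with an adjusted *P* of 0.0596 by limma. *Fgf2* was at 1.27 and 1.41 RPKM (log2 fold change 0.11) and *Fgf18* at 1.37 RPKM (CV 0.46) and 0.95 RPKM (CV 0.10; log2 fold change -0.37). The other 12 ligands had no mean above 1 RPKM, and *Fgf20* was listed at 0 in *Dio3-/-* hearts.

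None of the 3 further tested receptor or co-receptor genes was called, nor did any reach an unadjusted *P* under 0.05. *Fgfr4*, expressed in developing skeletal muscle and liver, was at 1.26 RPKM (CV 1.27) and 0.40 RPKM (CV 0.55). Its log2 fold change of -0.97 had a 95% CI from -2.20 to 0.26, the widest of the receptors and a rough approximation at a CV of 1.27. *Fgfrl1*, a receptor without a kinase, was at 15.72 and 14.72 RPKM (log2 fold change -0.09) and the Klotho co-receptor *Kl* at 1.76 and 1.49 RPKM (log2 fold change -0.18).

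Of 12 other feedback genes 11 were tested, none was called and 1 had an unadjusted *P* under 0.05. Their median log2 fold change was -0.13. The most abundant were *Flrt2* (37.45 and 31.44 RPKM), *Spred1* (24.20 and 22.54 RPKM) and *Dusp7* (22.07 and 21.80 RPKM). The lowest change was that of *Il17rd*, a membrane inhibitor of FGF signaling, at -0.47 with a CV of 0.57 in *Dio3+/+* hearts (adjusted *P* = 0.432 by limma), and the highest that of *Dusp5*, a nuclear ERK phosphatase, at 0.29 (adjusted *P* = 0.212 by limma).

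Among 10 genes that respond to ERK, 9 were tested and *Fos*, an immediate early gene of the AP-1 complex, was lower in *Dio3-/-* hearts. *Fos* fell from 4.01 RPKM (CV 0.18) to 2.21 RPKM (CV 0.11), a log2 fold change of -0.73 (SE 0.12, adjusted *P* = 0.0183 by limma), and the call was lost with an unequal-variance test (adjusted *P* = 0.192). The ETS factors induced by FGF signaling did not pass, with log2 fold changes of -0.13 for *Etv1*, 0.07 for *Etv4* and -0.02 for *Etv5*. By the higher of both genotype means, the most abundant genes of the list were *Ccnd1* (44.27 and 41.71 RPKM), *Ier3* (11.33 and 13.08 RPKM, log2 fold change 0.20) and *Egr1* (12.08 and 12.87 RPKM). The median of the list was 0.00.

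All 18 genes of the transducer list, from receptor adaptors to ERK, were tested, and *Ptpn11* rose. It encodes the phosphatase SHP2, which relays receptor signals to RAS, and had means of 39.58 RPKM (CV 0.04) and 47.03 RPKM (CV 0.02), a log2 fold change of 0.25 (SE 0.04, 95% CI 0.15 to 0.34, adjusted *P* = 0.0247 by limma). Its call was lost after centring on the median log2 ratio (adjusted *P* = 0.0589) and with an unequal-variance test (adjusted *P* = 0.0787). *Hras1* was at 13.35 and 15.6 RPKM (log2 fold change 0.22, adjusted *P* = 0.0653 by limma). The ERK kinase gene *Mapk3* (50.10 and 50.50 RPKM) and the adaptor gene *Grb2* (38.59 and 39.84 RPKM) had changes of 0.01 and 0.05 and did not pass, and the lowest change was that of *Plcg1* at -0.09. The median of the list was 0.01.

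Of 22 genes for heparan sulfate proteoglycans and their enzymes 21 were tested, none was called and 5 had an unadjusted *P* under 0.05. Changes ran from -0.42 for *Gpc2* to 0.33 for *Hspg2*, the gene of perlecan (39.91 and 50.44 RPKM, adjusted *P* = 0.0733 by limma), with a median of -0.01. The most abundant genes were *Gpc3* (197.61 and 160.62 RPKM), *Sulf2* (97.67 and 79.81 RPKM) and *Gpc1* (48.32 and 51.51 RPKM).

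**Figure D5:**
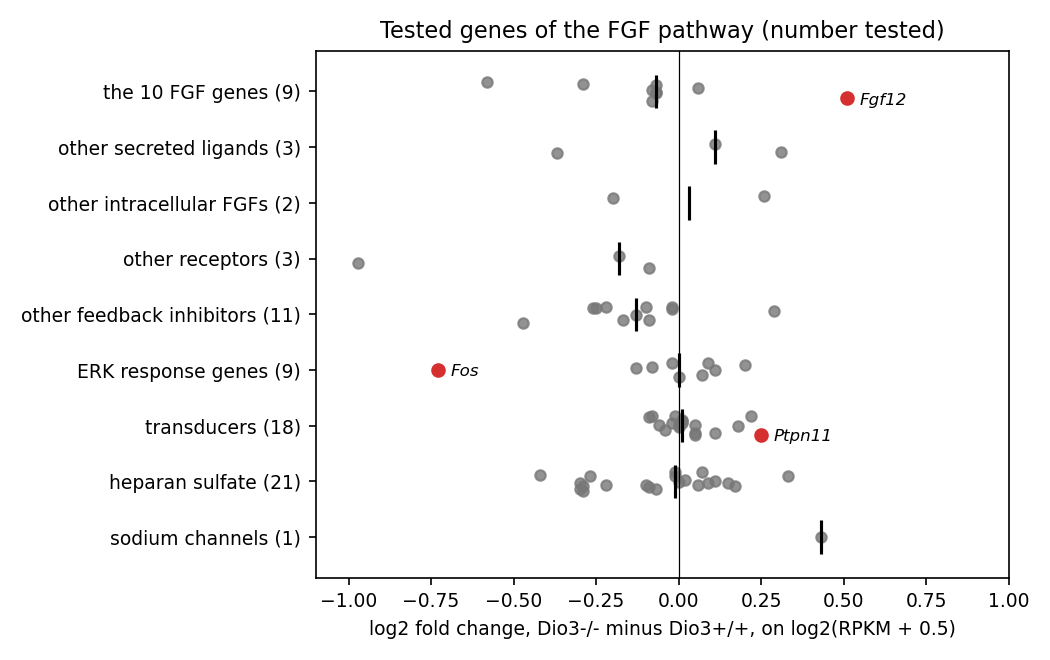
Log2 fold change (log2(RPKM + 0.5) scale) of each tested gene of the 10 FGF genes and the 8 pathway lists, 1 point a gene, with the list median as a vertical bar; red points passed the test. The called genes are Fgf12 (0.51), Ptpn11 (0.25) and Fos (-0.73), and the medians lie between -0.18 and 0.11 except for the lone sodium channel gene (0.43).

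Some rows of these genes share sequence with other annotated genes. Exons of *Fgf10*, *Fgfr1*, *Fgfr3* and *Spry1* overlap an opposite-strand gene in the GENCODE M21 annotation (*Gm16263*, *Gm16159*, *G630022F23Rik* and *Gm42922*), and *Fgfr2* overlaps a transcript of *Ctbp2* on its own strand. Whether the counting used strand is not given in the sources used here, so reads of these pairs may not be separated. No such overlap was found for *Fgf12*, *Spry2* or *Dusp6*.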

How the data were processed

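Total RNA of 4 *Dio3+/+* and 4 *Dio3-/-* fetal hearts was depleted of ribosomal RNA and sequenced (single-end). Per the methods and the submitters' processing notes, the authors checked reads with FastQC, aligned them with Novoalign (version 2.08), kept uniquely mapping reads and scaled each sample to the smallest. The genome build is not given in the sources used here. The authors deposited 1 table of UCSC known-gene rows with the mean RPKM of each genotype (the unit is taken from the methods; the table does not name it). The coefficient of variation, a ratio of SD to mean, was deposited beside it. Both are rounded to 2 decimals. Fold changes and *q* values of the authors are also in the table and were not used. It holds neither read totals nor single hearts; the methods give a range of aligned reads over samples but no number for each heart, so no counting interval was calculated.

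The planned limma test was therefore calculated from the summaries. The log2(mean + 0.5) of each genotype was compared, with its SD approximated from the coefficient of variation (delta method), a pooled variance on 6 degrees of freedom, and moderation with a mean-variance trend (limma version 3.58.1, R version 4.3.3; 3.52 prior degrees of freedom). The approximation is rough where the coefficient of variation is large, as for *Fgf10*, *Fgfr4* and many liver and skeletal muscle genes. Their SE, CI and *P* values are therefore uncertain. *P* values, all 2-sided, were adjusted by Benjamini-Hochberg over 32703 rows, those whose mean passed 1 RPKM in either genotype, with a threshold of 0.05. Replicates are separate fetuses. Python (version 3.11.15), pandas (2.3.3), numpy (2.4.6) and matplotlib (3.10.9) were used for summaries and plots.

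Genes, lists and tests were chosen with earlier results of these data known. All 10 genes are described, and of each pathway list every called gene, the 3 most abundant by the higher genotype mean and those with the largest and smallest log2 fold change. Marker lists are described by counts and summed levels. Some genes of the pathway lists are not reported here. Of the 90 list genes described, 1 was matched by an older symbol (*Hras1*). Promoter sequences came from RefSeq. Alternatives were pseudocounts of 0.1 and 1, no filter, a filter at 5 RPKM on the average of all hearts, no trend, 1 row per gene, an unequal-variance test, centring on the median log2 ratio, coefficients of variation raised by 0.005, omission of rows whose coefficient of variation passed 0.5, and the other rows of each gene.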

Additional observations from a re-analysis of the deposited data

How the results depend on the processing

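*Fgf12* was higher in *Dio3-/-* hearts in all 9 alternatives that tested it and past the threshold in 5, with adjusted *P* values (limma unless named otherwise) from 0.0254 to 0.162. The call was lost without a filter (log2 fold change 0.51, adjusted *P* = 0.0711, although the low row uc007yvu.1 then passed with 0.50 and 0.0369), with the unequal-variance test (0.51, 0.162), after centring on the median log2 ratio, a shift of 0.038 (0.47, 0.0619), and with coefficients of variation raised by 0.005 (0.51, 0.0506). Where the average of all hearts had to pass 5 RPKM the gene, at 4.98 RPKM, was not tested. Thus, the number of the 10 genes called was 1 in the main test and 0 in these 5 alternatives, of which 4 kept 1 gene at an unadjusted *P* under 0.05. None of the other members of the family was called in any alternative (lowest adjusted *P* = 0.353). The sign turned for 2 other rows of *Fgfr2*, with log2 fold changes of 0.05 (adjusted *P* = 0.912) and 0.02 (adjusted *P* = 0.963). The cause of these changes was not tested. Of the pathway lists, 2 genes were called in the main test, 1 where the average of all hearts had to pass 5 RPKM (*Fos* was not tested), 1 after centring, and 0 with the unequal-variance test (10 at an unadjusted *P* under 0.05), where adjusted *P* values were 0.192 for *Fos* and 0.0787 for *Ptpn11*. *Ptpn11* lost its call after centring (0.21, adjusted *P* = 0.0589), and *Fgf1* was called once rows with a coefficient of variation above 0.5 were left out (adjusted *P* = 0.0491). No paired analysis was possible because the table gives genotype means and no single hearts; leaving out each heart in turn was not run for the same reason, and no heart could be checked as an outlier. The read number of each heart was not used here, and genes below 1 RPKM, *Fgf16* among them, could not be tested.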
